A study of Bos taurus with 20 samples.

Results

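Methionine and one-carbon cycle enzymes were followed through the bovine ovarian follicle as a set of 9 genes, MAT1A, MAT2A, MAT2B, GNMT, AHCY, MTR, BHMT, CBS and CTH, out of 22550 genes or unnamed transcripts on the array. The genes were chosen by name, taking every non-control probe whose gene name was 1 of the 9, and the names were proposed with earlier results of these same arrays in view. Which values led to the choice is not recorded, so the levels and differences of the 9 genes are given as a description, with their errors and without p-values.

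RNA from 5 kinds of sample of Bos taurus, collected from antral follicles of 3 to 6 mm in ovaries obtained after slaughter, was hybridised to a 1-colour 60-mer array, with 4 samples per group and 20 arrays in all. Theca cells (TH) were scraped off the follicle wall, granulosa cells (GC) and cumulus-oocyte complexes came from the punctured follicles, and cumulus cells (CC) and immature oocytes (OO) were the separated parts of those complexes. The fifth group, CC_IVM, was cumulus cells detached after 4 h of in vitro maturation (IVM), whereas the TH, GC, CC and OO samples were labelled immature. The labels name no other treatment, give no age, breed or maturation medium and do not say how many animals or oocytes went into a sample. The study calls the 4 samples of a group biological replicates; nothing says that same-numbered samples came from the same animals, and p-values measure only the spread between these samples.

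In the methionine cycle, methionine adenosyltransferase makes S-adenosylmethionine (SAM), the methyl donor of DNA, histone, RNA and lipid methylation. Each transfer of a methyl group leaves S-adenosylhomocysteine (SAH), which is split to homocysteine. Homocysteine is then either methylated back to methionine, by a folate- and cobalamin-dependent enzyme or by a betaine-dependent one, or passed through transsulfuration to cysteine, a precursor of glutathione. The growing oocyte sets its DNA methylation marks in the follicle, and its supply of SAM and glutathione is a known concern of oocyte maturation.

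Levels are log2 of the background-subtracted intensity minus the array's 75th percentile, so 0 is the brightness that 25% of probes exceed, and 1 unit is a doubling. Between 49.3 and 68.8% of probes were well above background on the OO arrays, the lowest being OO replicate 2, and between 54.2 and 62.8% on the other 16. The theca and oocyte marker sums followed the labels. The summed level of 5 theca and stroma genes was 9.17 to 9.70 on the TH arrays and at most 6.84 elsewhere. The summed level of 6 oocyte genes was 7.95 to 8.37 on the OO arrays and at most 1.59 elsewhere. HAS2, which makes the hyaluronan of the expanding cumulus, averaged 2.20 in CC_IVM against -5.56 in CC. PTX3, the other measured gene of the cumulus expansion list, averaged -0.77 in CC_IVM and -0.66 in CC. The summed level of 3 endothelial genes overlapped between TH (0.43 to 2.13) and OO (-1.23 to 1.01). CYP17A1, a theca steroid enzyme, was well above background on 0 of 4 arrays in CC, CC_IVM and OO. INSL3 and COL1A1, of the same list, were well above background on all 4 CC arrays, averaging 4.54 and 2.13. In such mixed RNA, fewer cells of a type and less RNA per cell cannot be told apart. Arrays 1 and 2 of TH, GC, CC and OO shared one slide and arrays 3 and 4 another, while all 4 CC_IVM arrays were on a slide of their own, so slide and maturation cannot be told apart in any comparison with CC_IVM.

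The 9 genes lie on 8 bovine chromosomes (build UMD 3.1, gene spans as the array annotation gives them) and were read by 24 spots with 19 distinct 60-base probes. The probes below are those behind the sharpest contrasts and behind the genes whose probes disagreed in size. The first 30 bases are given as the array lists them, with no strand stated, and capitals mark the only stretch of 12 bases or more that probes of one gene had in common.
MAT1A probe 1: tgcactgaactgtaggcctgaagcacaaaa
MAT1A probe 2: aaagaagcccagatgaccgtaaacacctaa
BHMT probe 1: tagcaaccagacaagtgcaaagtgctatag
BHMT probe 2: cccttaatgagaaacacaatttatataatg
GNMT probe 1: aagcgtggatgccagtgacaagatgctgaa
GNMT probe 2: gggcagacttccgctgcgctcaggaggaca
CBS probe 1: tgctttctgtccatggatttacctgctctg
CBS probe 2: gtttcagcaagcaaatctatcaaaagagaa
CTH probe 1: gtaatcttcctgggatcatccctgttaaaa
CTH probe 2: GGTCAATTCTGTTCAGATCTTTTTATTAAT
CTH probe 3: caGGTCAATTCTGTTCAGATCTTTTTATTA
Probes 2 and 3 of CTH had 58 of their 60 bases in common and so read nearly the same target, while probe 1 of CTH and the paired probes of the other genes read separate stretches. CBS and MTR carried each of their probes on 2 spots, which are copies and not further evidence.

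MAT1A, MAT2A and MAT2B showed 3 different patterns. MAT1A (chromosome 28, 35870568 to 35887533), the catalytic subunit best known from liver, varied most among the somatic layers. The CC arrays read -0.10, -0.38, -0.50 and 0.27. GC arrays stood lower, at -1.59, -1.43, -1.42 and -2.84, and TH arrays lower still, at -3.77, -4.10, -3.03 and -3.99. After 4 h of IVM the cumulus arrays read -4.62, -5.61, -5.58 and -4.85, and the oocyte arrays -7.52, -6.28, -7.10 and -7.17. CC, GC and TH did not overlap each other, and CC_IVM and OO lay below all of them. MAT1A was thus 3.13-fold lower in GC than in CC (log2 difference -1.64, SE 0.35), 3.74-fold lower in TH than in GC (-1.90, SE 0.35), and in OO it lay 5.11 on the log2 scale below the average of the 3 immature somatic groups, called the somatic mean from here on (-5.11, SE 0.29). It was well above background on 2 of 4 OO arrays and 3 of 4 CC_IVM arrays, but 3 of the 4 CC_IVM values and all 4 OO values lay under the lowest signal that counted as above background on their arrays. The measured levels there are not exact and no order is read between CC_IVM and OO. The summed level of the granulosa and cumulus markers was 4.18 to 5.06 in TH, 6.79 to 8.82 in GC, 8.57 to 8.62 in CC and 1.14 to 1.60 in OO, and its part in the gradient was not tested. That sum was 9.29 to 9.59 in CC_IVM, where MAT1A was low. INHBA, the brightest of its 4 genes, averaged 9.39 in CC_IVM against 8.31 in CC. FSHR (1.04 against 2.29), CYP19A1 (-1 against 0.26) and AMH (4.93 against 5.97) averaged lower in CC_IVM.

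MAT2A (chromosome 11, 49298517 to 49305175), the catalytic subunit of most other tissues, was nearly level across the somatic samples. TH averaged 0.06 ± 0.32 (SD, n = 4), GC 0.11 ± 0.38, CC 0.07 ± 0.28 and CC_IVM 0.36 ± 0.42, and all of these overlapped. The OO arrays, at -0.79, -1.06, -1.04 and -0.75, lay below every somatic array, a difference of -0.99 (SE 0.18). The probes gave this difference as -1.44 and -0.54. Only probe 1 separated OO from every somatic array of TH, GC and CC. With probe 2 the OO arrays read -0.11, -0.55, -0.44 and -0.27, which overlapped TH replicate 4 (-0.30) and GC replicate 4 (-0.22).

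MAT2B (chromosome 7, 77321513 to 77337009), the regulatory subunit that binds the MAT2A product, went the other way in the oocyte. Its OO arrays read 3.13, 3.11, 3.24 and 3.05. The GC arrays read 0, -0.16, 0.12 and -0.31, the TH arrays -0.08, -0.25, -0.16 and -0.20, and the CC arrays -0.75, -0.82, -0.73 and -0.49. The oocyte group stood 10.9-fold above the somatic mean (3.45, SE 0.11), with a spread within OO of 0.08 (SD). Cumulus was the lowest of the 3 immature somatic groups for MAT2B, below TH by 0.53 (SE 0.13) without overlap, whereas GC and TH overlapped.

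GNMT (chromosome 23, 16579606 to 16583028), which spends SAM on methylating glycine and is regarded as a sink for excess SAM, was an oocyte-high gene. It read -0.82, -2.48, -2.41 and -1.78 on the OO arrays. TH arrays read -5.55, -5.25, -4.99 and -4.95 and were all well above background. GNMT was well above background on 1 of 4 GC arrays and on 0 of 4 CC arrays, where the measured means were -6.26 ± 0.56 and -6.73 ± 0.48 (SD, n = 4). Against CC the oocyte level over both probes was at least 11.6-fold higher with the background subtraction used here. The limit taken for CC, the lowest signal that counts as above background, averaged -5.41. Probe 1 alone averaged -4.76 in OO, so this bound does not hold for probe 1. Against the somatic mean the measured difference was 4.19 (SE 0.30), but the probes differed: 2.30 with probe 1, which was well above background only on 3 OO arrays, and 6.08 with probe 2. The somatic level of probe 1 is therefore only an upper bound, and the size of the oocyte difference in GNMT depends on which probe is read, while its direction was the same for both.

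AHCY (chromosome 13, 64258560 to 64274274), the hydrolase that removes SAH, was well above background on all 20 arrays and varied over a narrow range. CC arrays read 4.86, 5.04, 4.90 and 5.08, GC arrays 4.86, 4.52, 4.81 and 4.97, and TH arrays 4.21, 4.00, 4.31 and 4.47. OO arrays, at 2.99, 3.08, 3.21 and 3.25, lay below all somatic arrays, by 1.54 on the log2 scale (SE 0.12) or 2.90-fold. The CC, GC, CC_IVM and TH groups each overlapped the next in that order.

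**Figure D1:**
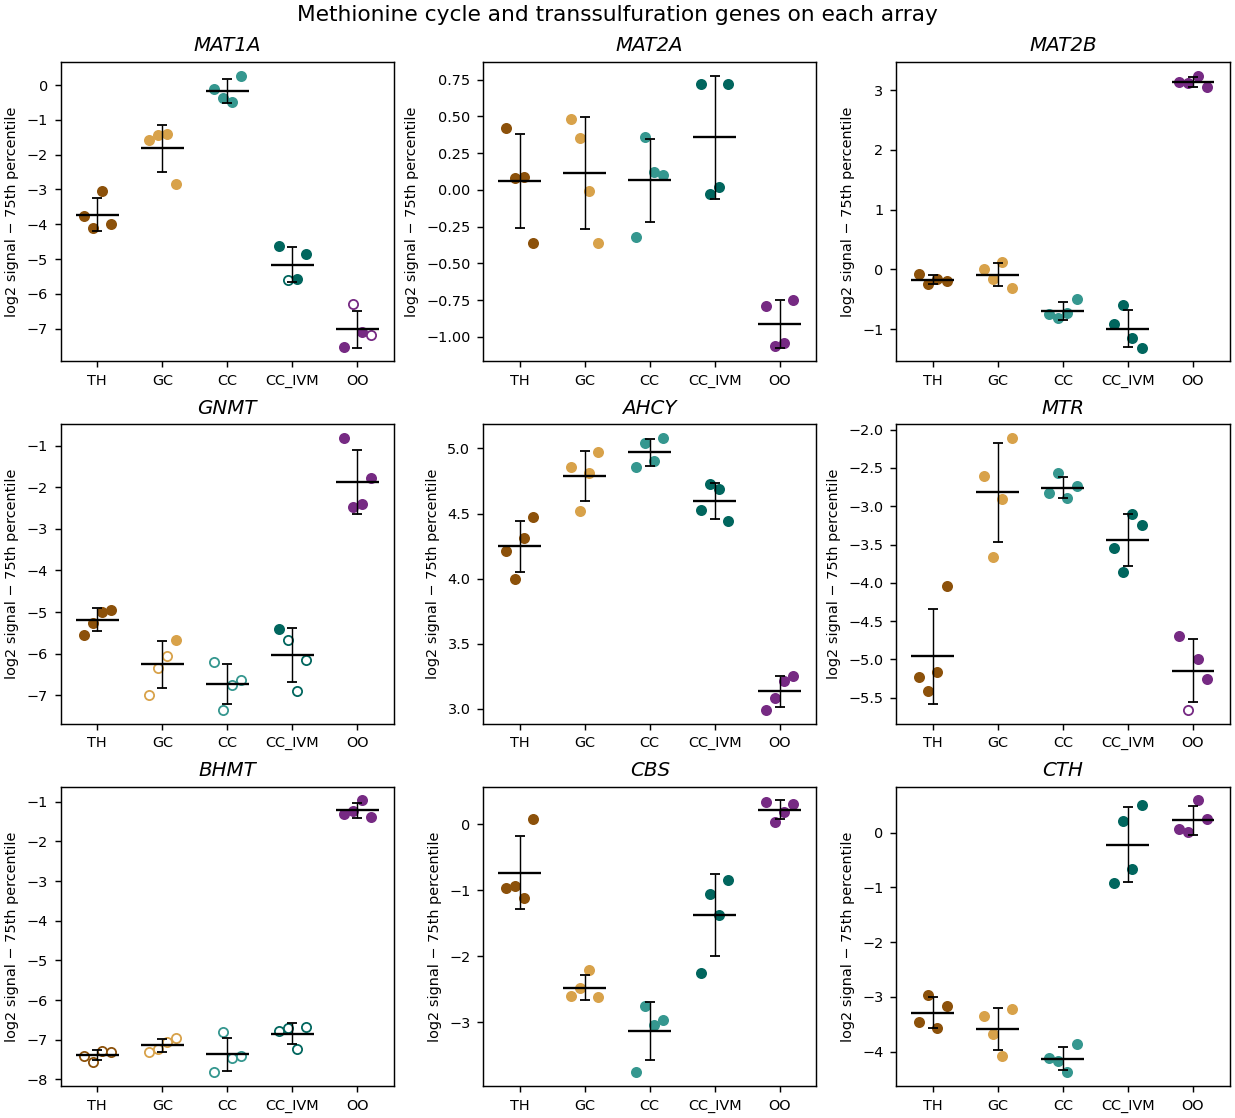
Level of each gene (log2 background-subtracted intensity minus the array's 75th percentile) on each of the 20 arrays, in theca (TH), granulosa (GC), cumulus before (CC) and after 4 h IVM (CC_IVM), and oocyte (OO). Points are arrays, open where no probe of the gene was well above background, horizontal lines are means and bars are SD over 4 arrays; vertical scales differ between panels. MAT1A is highest in CC and low in CC_IVM and OO, and BHMT is filled only in OO.

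The enzymes that return homocysteine to methionine differed in where they were read. MTR (chromosome 28, 9468535 to 9594388), methionine synthase, which takes the methyl group from folate through cobalamin, read -2.60, -3.66, -2.90 and -2.11 in GC and -2.83, -2.57, -2.89 and -2.74 in CC, and these groups overlapped. It read -5.23, -5.41, -5.16 and -4.04 in TH and -4.69, -5.66, -4.99 and -5.25 in OO, and these also overlapped. MTR was thus 4.43-fold lower in TH than in GC (-2.15, SE 0.34) and 5.25-fold lower in OO than in CC (-2.39, SE 0.34; 3.95-fold with the 1 OO array under the background limit set to it), while oocyte and theca did not separate. One of the OO arrays, replicate 2, had no MTR probe well above background.

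BHMT (chromosome 10, 10127781 to 10151271), which uses betaine in place of folate and is best known from liver and kidney, was above background in oocytes alone among these samples. The OO arrays read -1.31, -1.23, -0.97 and -1.38, and both probes were well above background on all 4. On the 16 TH, GC, CC and CC_IVM arrays neither probe was, and the measured values ranged from -7.82 to -6.68. The following lower bounds hold for the background subtraction used here. The oocyte level was at least 16.7-fold higher than in TH and at least 14.0-fold higher than in GC. Against CC and CC_IVM it was at least 18.3-fold and 11.5-fold higher. The measured difference from the somatic mean was 6.08 (SE 0.16), and the probes agreed on it to within 0.14. That difference was 2.10 after another background correction (normexp) and 3.44 with the authors' deposited values. The 6 oocyte markers were all detected in CC, with a summed level of -0.83 to 1.59, on arrays where BHMT was not well above background.

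Both transsulfuration enzymes were high in the oocyte, but their somatic patterns differed. CBS (chromosome 1, 144790331 to 144812855), which joins homocysteine to serine, read 0.34, 0.03, 0.19 and 0.31 in OO. Theca came next, at -0.97, -0.93, -1.12 and 0.08, and replicate 4 of TH lay within the oocyte range, so these groups overlapped. The overlap came from probe 2, which read -1.98 on TH replicate 4. Probe 1 read 1.66 to 2.07 in TH and 3.28 to 3.60 in OO, without overlap. GC arrays read -2.60, -2.48, -2.21 and -2.62 and CC arrays -3.76, -2.76, -3.04 and -2.96, without overlap between them. TH stood 3.34-fold above GC (1.74, SE 0.26), and OO stood 2.34 above the somatic mean (SE 0.21). Probe 1 of CBS gave 3.06, and probe 2, which was well above background on 1 of 4 arrays in GC and in CC, gave 1.79. The summed level of 3 endothelial genes was 0.43 to 2.13 in TH and -4.66 to -3.15 in GC, and its part in the CBS difference between these layers was not tested.

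CTH (chromosome 3, 75082359 to 75109443), which releases cysteine from cystathionine, read 0.06, 0.01, 0.59 and 0.25 in OO. The immature somatic groups were all lower: -3.46, -2.96, -3.57 and -3.16 in TH, -3.35, -3.67, -4.08 and -3.23 in GC, and -4.12, -4.17, -4.38 and -3.87 in CC. TH overlapped GC and GC overlapped CC. The oocyte stood 14.9-fold above the somatic mean (3.90, SE 0.17), and the probes gave 3.76 to 3.93.

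For 7 of the 9 genes all 4 OO arrays were beyond the range spanned by the 12 immature somatic arrays, above it for MAT2B, GNMT, BHMT and CTH and below it for MAT1A, MAT2A and AHCY. Over all genes of the array the share was 45.9%. Both are for gene levels taken over all probes of a gene. Read singly, probe 2 of MAT2A and probe 1 of GNMT overlapped the somatic arrays, and probe 1 of CBS did not. In limma's fit, with Benjamini-Hochberg adjustment over all 22550 genes at 0.05, all 9 genes were called in the F-test over TH, GC, CC and OO, where 71.3% of all genes were called, and all 9 in oocyte against the somatic mean, where 71.3% were called as well, 32.9% higher and 38.3% lower. Of the 9, 5 were higher (MAT2B, GNMT, BHMT, CBS and CTH) and 4 lower (MAT1A, MAT2A, AHCY and MTR). Against CC alone, 9 were called (63.7% of all genes). Between the somatic layers, 5 were called in TH against GC (26.3%), 7 in TH against CC (31.8%) and 2, MAT1A and MAT2B, in GC against CC (9.88%). Since the genes were proposed with these contrasts in view, nothing is read from these counts. The median difference of the 9 genes between oocyte and somatic mean was 2.34, against -0.52 over all genes and -0.05 over the 17430 genes detected in some group. The all-gene median moved to -0.01 under quantile normalisation and to -1.30 after another background correction (normexp), and all 9 genes kept their direction under both. The sizes of genes with dim samples did depend on it: after normexp the oocyte difference was -3.25 for MAT1A, 1.68 for GNMT, 2.10 for BHMT and 1.52 for CBS, and with the authors' deposited values that of MAT2A was -0.35, that of AHCY -0.90 and that of MTR -1.03.

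All 19 probes gave the oocyte difference the sign of their gene. Both slides gave the same signs: on the first and second slide the differences were -5.01 and -5.22 for MAT1A, 3.47 and 3.44 for MAT2B, 4.63 and 3.74 for GNMT, 6.09 and 6.07 for BHMT, 2.44 and 2.23 for CBS, and 3.66 and 4.14 for CTH.

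**Figure D2:**
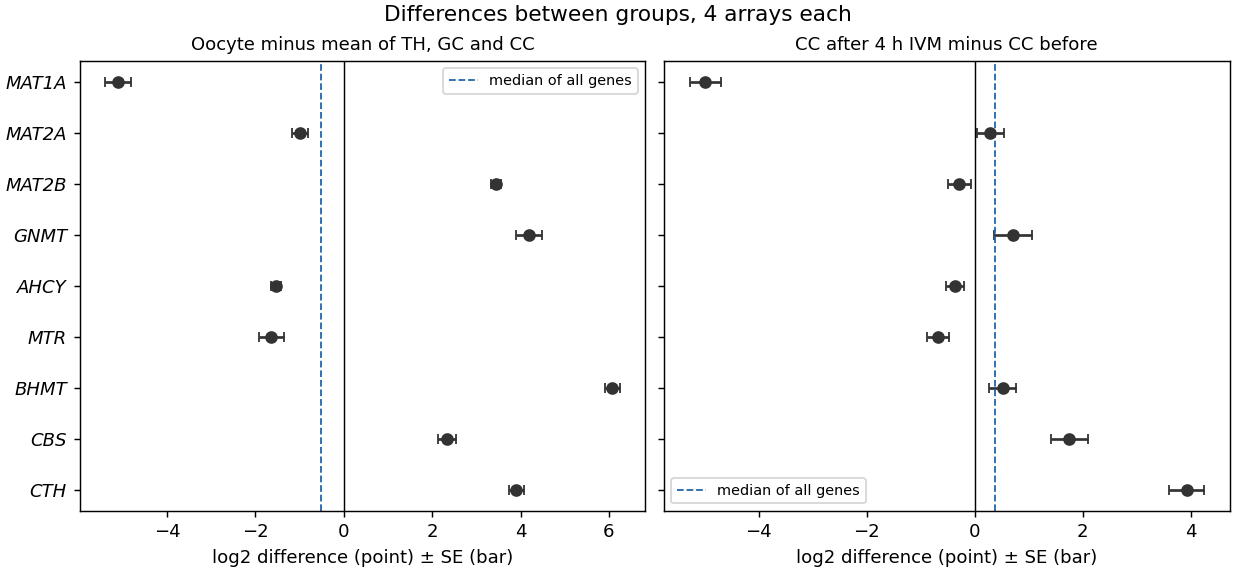
Log2 difference (point) and its SE from limma's fit (bar) for each gene between oocyte and somatic mean (left) and between cumulus after and before 4 h IVM (right). The dashed line is the median over all 22550 genes, -0.52 on the left and 0.37 on the right; GNMT and BHMT were at or near background in both groups of the right panel. MAT1A lies at -5.11 and -4.99 and CTH at 3.90 and 3.92.

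In cumulus cells after 4 h of IVM, 3 of the genes stood far from their level before it. MAT1A read -4.62, -5.61, -5.58 and -4.85 against -0.50 to 0.27 before IVM, a measured log2 difference of -4.99 (SE 0.29). Probe 1 was well above background on 0 of 4 CC_IVM arrays and probe 2 on 3. With the 3 CC_IVM values under the background limit set to that limit, MAT1A was at least 23.5-fold lower with the background subtraction used here. CTH read -0.92, 0.22, -0.67 and 0.50 against -4.38 to -3.87, a 15.1-fold higher level (3.92, SE 0.32) that overlapped the oocyte range. CBS, the step before CTH, read -2.25, -1.06, -1.38 and -0.84 against -3.76 to -2.76, a 3.36-fold higher level (1.75, SE 0.34). In all 3 genes the CC_IVM arrays did not overlap the CC arrays. The sizes were smaller after normexp, at -2.36 for MAT1A and 2.60 for CTH, and with the deposited values, at -3.23 for MAT1A, 2.66 for CTH and 1.17 for CBS.

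The remaining genes differed less. MTR read -3.55, -3.86, -3.10 and -3.25, all below CC, with a difference of -0.68 (SE 0.21). AHCY was lower by 0.37 (SE 0.17), also without overlap when the level was taken over both probes. Probe 1 of AHCY alone overlapped, at 5.26 on CC_IVM replicate 2 and 5.22 on CC replicate 1. MAT2A (0.29, SE 0.25) and MAT2B (-0.29, SE 0.21) overlapped their CC ranges, and GNMT and BHMT were well above background on 1 and 0 of 4 CC_IVM arrays and on none of the CC arrays, so no difference could be read for them. For 5 of the 9 genes the CC_IVM arrays lay outside the CC range, against 44% of all genes, with levels taken over all probes of a gene. limma called 4 of 9 at 0.05, CBS and CTH higher and MAT1A and MTR lower, against 45.8% of all genes, 30.3% higher and 15.5% lower; again nothing is read from the count. Every probe had the sign of its gene, from -5.39 to -4.59 for MAT1A and from 3.87 to 3.98 for CTH. For MTR the direction depended on the background correction, with a difference of 0.03 after normexp.

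The comparison carries other differences beside maturation. All CC_IVM arrays were on their own slide, the 75th percentile of their intensity was 284.5 to 395.9 against 536.3 to 657.3 in CC, and the median over all genes was 0.37 higher, or 0.01 after quantile normalisation. The summed level of 6 oocyte markers was -2.64 to -0.84 in CC_IVM and -0.83 to 1.59 in CC, and that of 4 blood and leukocyte genes -0.53 to 0.91 against -2.94 to -1.34, with PTPRC, the pan-leukocyte gene, well above background on no array of either group. Their part in these differences was not tested.

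**Figure D3:**
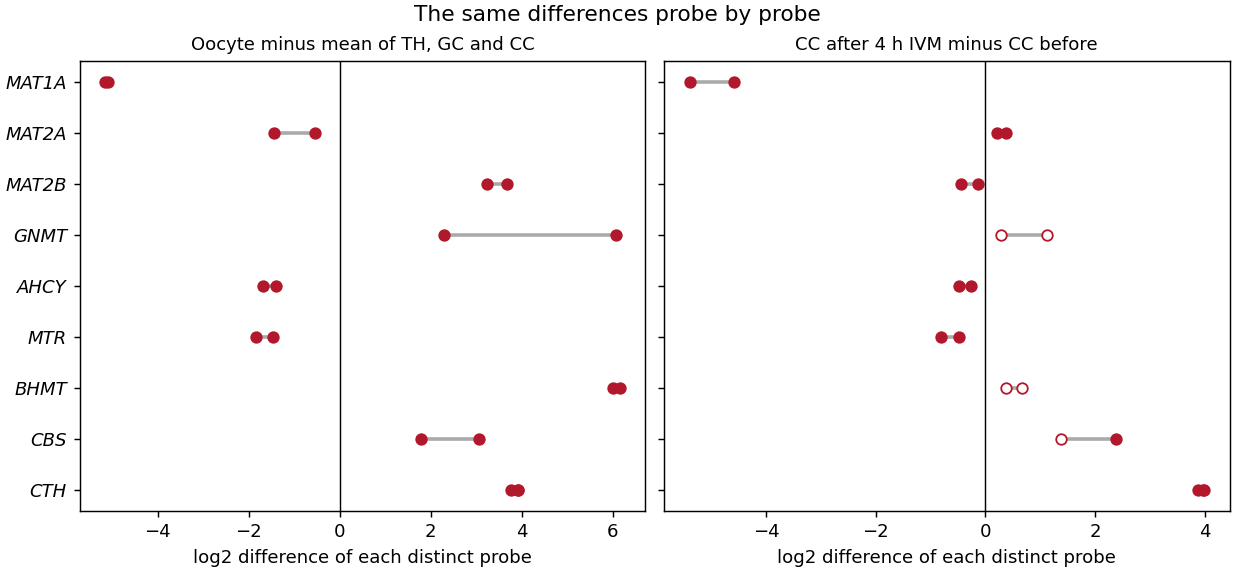
The same 2 differences computed for each of the 19 distinct probes (points, joined by a grey line within a gene), in log2 units. Open points mark probes that were well above background on fewer than 3 arrays in every group compared. GNMT spans 2.30 to 6.08 in the oocyte comparison and CBS 1.79 to 3.06, while the CTH and BHMT probes nearly coincide.

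Around these 9 genes, 74 other genes of one-carbon metabolism were listed by function, of which 72 were found on the array. These were tested, with limma's p adjusted over all genes. The lists were chosen with earlier results of these arrays known, and most genes named below had the largest differences. The p-values are therefore not independent support. Between oocyte and the somatic mean, 28 rose, 27 fell and 17 were not called, where 32.9% of all genes were higher and 38.3% lower; after normexp 25 rose and 39 fell. TCN2, the carrier that delivers cobalamin to cells, averaged 4.07 in theca, 2.58 in granulosa, 3.43 in cumulus and -4.36 in oocytes, where 3 of 4 arrays were well above background, 210-fold lower (-7.72, SE 0.19, limma adjusted p = 2e-14). FOLR2, a folate receptor, averaged 2.33 in TH and was well above background on 0 of 4 OO arrays (limma adjusted p = 1.6e-08). With the background subtraction used here, its oocyte level was at least 301-fold below TH, 28.8-fold below GC and 12.8-fold below CC. Over the alternatives its log2 difference from the somatic mean ranged from -8.73 to -4.79. FOLR2 is also a macrophage gene, and the summed blood and leukocyte list was -0.68 to 0.27 in TH and -4.98 to -3.89 in OO; its part was not tested.

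Enzymes of formyl-tetrahydrofolate moved in both directions. MTHFD1L, the mitochondrial formate-releasing enzyme, fell by 4.68 on the log2 scale (SE 0.24, limma adjusted p = 6.4e-11), ALDH1L1, which oxidises formyl-tetrahydrofolate, by 4.54 (SE 0.16, adjusted p = 7.7e-13) and MTHFS by 3.76 (SE 0.17, adjusted p = 1.2e-11). MTHFD1, which makes formyl-tetrahydrofolate in the cytosol, rose by 2.66 (SE 0.31, limma adjusted p = 1.4e-06). ALDH1L2, the mitochondrial relative of ALDH1L1, rose by 1.53 (SE 0.25, limma adjusted p = 3.9e-05). ALDH1L2 averaged -1.25 in OO, -1.54 in CC, -3.37 in TH and -3.43 in GC, so it stood little above CC. MTFMT, which formylates the mitochondrial initiator tRNA, rose by 1.94 (SE 0.11, limma adjusted p = 1.9e-10). MTHFD1, ALDH1L2 and MTFMT were added after their values were seen. SLC25A32, which carries folate into mitochondria, rose by 4.04 (SE 0.14, limma adjusted p = 7.4e-13). The cytosolic folate list as a whole had 4 genes higher and 6 lower of 15, with a median of -0.33. The mitochondrial list had 5 and 5 of 13, with a median of 0.11. The all-gene median was -0.52, and that of the genes detected in some group -0.05. After normexp the cytosolic list had 3 higher and 10 lower (median -1) and the mitochondrial list 5 and 7 (median -0.82). The all-gene median was then -1.3.

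Next to BHMT, PEMT, which makes phosphatidylcholine with SAM, fell by 3.89 (SE 0.40, limma adjusted p = 2.5e-07). In OO, 3 of its values lay under the background limit. With these set to the limit, PEMT was 8.32-fold lower in OO than in CC. Over the alternatives its difference from the somatic mean ranged from -4.70 to -2.46. Among the 6 choline and betaine genes 1 rose and 3 fell, and after normexp 0 rose and 5 fell. The 1 that rose, CHDH, was well above background on no TH, GC or CC array. With the background subtraction used here, its oocyte level was at least 1.38-fold above TH, 1.16-fold above GC and 1.5-fold above CC. Next to AHCY, ADA, which deaminates adenosine, the other product of SAH cleavage, rose 15.1-fold over the somatic mean (3.91, SE 0.22, limma adjusted p = 1.7e-10). ADA averaged 2.8 in OO, 1.62 in TH, -2.07 in GC and -2.88 in CC, so theca lay much nearer the oocyte than GC and CC did. All 4 genes of that list were called, 2 in each direction. In cobalamin handling, MMAA, a mitochondrial cobalamin chaperone, rose 19.6-fold (4.29, SE 0.11, limma adjusted p = 2.7e-14); 2 of the 8 genes rose and 3 fell, and with the deposited values 4 rose and 3 fell.

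Downstream of CBS and CTH, 5 of 8 genes of cysteine and sulfide use rose in the oocyte and 3 fell, with a median of 0.67; after normexp 4 rose and 4 fell, with a median of -0.29. CDO1, which oxidises cysteine toward taurine, averaged 3.74 in oocytes, 0.39 in theca, -1.50 in granulosa and -1.39 in cumulus (4.57, SE 0.25, limma adjusted p = 1e-10). GADL1, a decarboxylase of the same family as the taurine-forming enzyme, had a measured difference of 4.29 (SE 0.12, limma adjusted p = 8.5e-14). It was well above background on no GC or CC array. With the background subtraction used here, its oocyte level was at least 3.81-fold higher than in GC and 4.95-fold higher than in CC. Over the alternatives its difference ranged from 0.62 to 4.47. SQOR, which oxidises hydrogen sulfide, rose 10.2-fold (3.35, SE 0.24, limma adjusted p = 4.4e-09). Polyamine synthesis and methionine salvage, which draw on SAM, had 5 genes higher and 3 lower of 9, and the list of SAM transport, sensing and small-molecule methylation 4 and 2 of 9. For the latter the balance turned to 4 higher and 5 lower after normexp, and also with the percentile taken over probes detected on all arrays.

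After 4 h of IVM, 14 of the 72 genes rose, 25 fell and 33 were not called, with 30.3% of all genes higher and 15.5% lower. This balance turned after normexp, where 31 rose and 24 fell. Among the 14 that rose were INMT and GADL1, which were well above background on no CC or CC_IVM array. No difference could be read for these, as for BHMT. The largest change was in MTHFD2, the mitochondrial enzyme that oxidises methylene-tetrahydrofolate, which averaged -3.79 ± 0.24 in CC and -0.20 ± 0.58 in CC_IVM (SD, n = 4), 12.1-fold higher (3.59, SE 0.29, limma adjusted p = 2.5e-05), with a log2 difference of 2.39 to 3.97 over the alternatives. Of the 15 cytosolic folate genes 1 rose and 9 fell, with a median of -1.07 against 0.37 over all genes. The median over the genes detected in some group was 0.14. The 1 that rose, FOLR1, had 3 CC and 2 CC_IVM values under the background limit. After normexp 3 of the 15 cytosolic folate genes rose and 7 fell. They included MTRR, which reactivates the MTR enzyme and fell by 2.25 (SE 0.22, limma adjusted p = 6.8e-05; from -2.49 to -0.42 over the alternatives), ALDH1L1 (-2.22, SE 0.26, adjusted p = 0.00022) and the folate carrier SLC46A1 (-2.18, SE 0.22, adjusted p = 7.5e-05; from -3.98 to -1.05). AMT, of the glycine cleavage system, fell by 2.08 (SE 0.23, limma adjusted p = 0.00015; from -2.18 to -1.10), and TST, a sulfurtransferase of sulfide use, by 2.12 (SE 0.42, limma adjusted p = 0.0038; from -2.22 to -0.92).

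Cobalamin handling moved mostly down, with 1 gene higher and 5 lower of 8, and polyamine synthesis and methionine salvage mostly up, with 5 higher and 2 lower of 9. None of the 4 relatives and partners of AHCY was called. The slide and marker values given above for CC_IVM apply to these genes too.

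**Figure D4:**
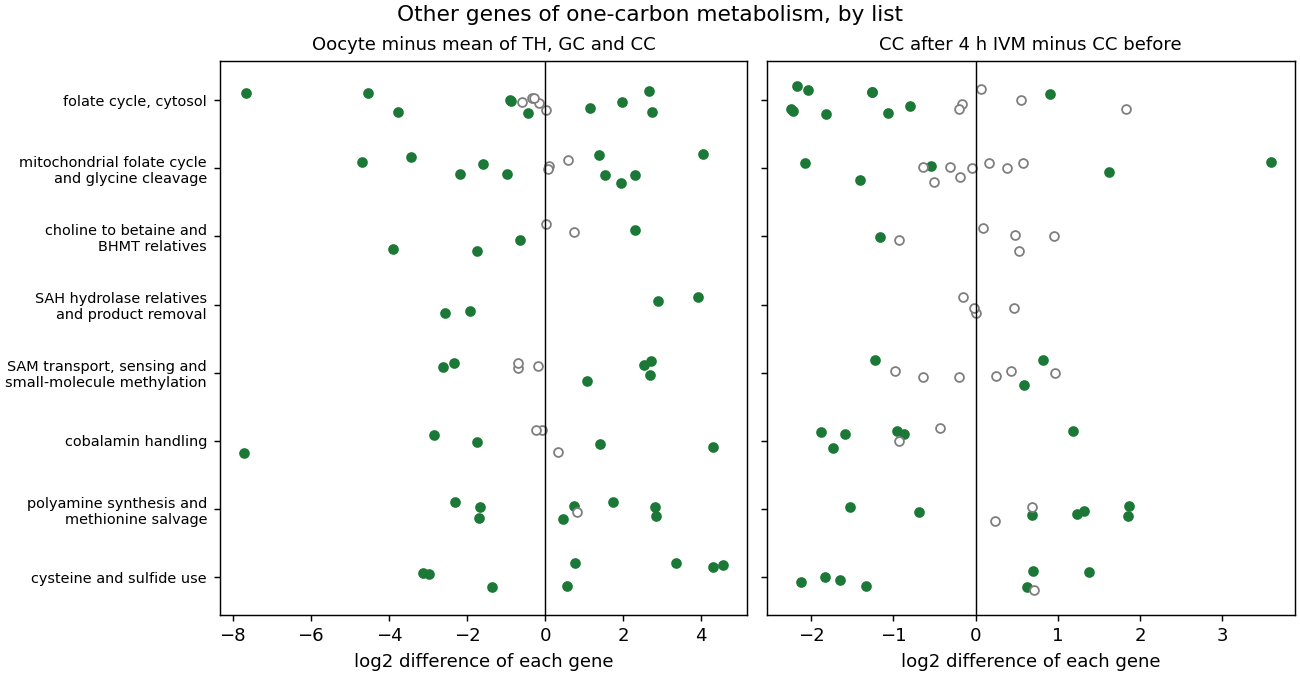
Log2 difference of each of the 72 other one-carbon genes, by list, between oocyte and somatic mean (left) and between cumulus after and before 4 h IVM (right). Filled points had a limma adjusted p under 0.05 and open points did not; vertical position within a list is arbitrary. On the right most filled points of the cytosolic folate list lie below 0, and the rightmost point of the panel is MTHFD2.

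For each of the 9 genes, the annotated genes with the most similar profile were looked up by the root mean square difference of gene-centred log2 values over all 20 arrays, among 15084 candidates. BHMT had the closest companions, HTR5A (0.14) and GABRA3 (0.16), both neurotransmitter receptors, beside its own SD over the arrays of 2.47. BHMT was well above background only on the 4 OO arrays. Its profile on all other arrays is a background reading, so these small distances are not read as a shared pattern. MAT2B was closest to GTF2B (0.17, own SD 1.53), a general transcription factor, and AHCY to SYT11 (0.15, own SD 0.68). MAT2A was closest to C1D (0.24, own SD 0.53), GNMT to TMEM52 (0.47, own SD 1.86), MTR to MYL6B (0.45, own SD 1.14) and CBS to ARHGAP29 (0.46, own SD 1.29). The profile of MAT1A was closest to MAP3K5 at 0.71 (own SD 2.52), and CTH, high both in oocytes and in matured cumulus, was closest to TAC1 (0.56) and TES (0.57, own SD 1.91). None of the 9 genes was the nearest neighbour of another. The 20 arrays behind each value fall into 5 groups on 3 slides and are not independent points.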

How the data were processed

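Per the file headers, the authors scanned 20 custom bovine arrays annotated on UMD 3.1, 1 per sample, and Agilent Feature Extraction (version 10.7.3.1 in the submitters' processing notes) gave background-subtracted spot intensities. The deposited log2 table holds log2 of the median spot intensity minus the array median, which the scanner values reproduce to within 5.0e-09; it was used as an alternative.

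Outlier-marked spots (0 to 23 per array) were left out and no spot was saturated. For 61325 non-control probes, log2 of the processed intensity minus the array's 75th percentile was taken, and the median over the spots of a gene was used, the summary the study's methods state. Of 9779 probes with no gene name, 734 were named through their accession in a RefSeq gene table and the others kept their transcript name. A gene was well above background on an array if at least 1 probe was. limma 3.58.1 in R 4.3.3 fitted TH, GC, CC and OO (16 arrays), and CC with CC_IVM (8 arrays), with Benjamini-Hochberg adjustment over all 22550 genes and a threshold of 0.05. The fits were tested on simulated data. The number of arrays, 4 per group, limits the precision.

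Genes were named by rule: the 9 genes, the 6 largest rises and 6 largest falls among the other one-carbon genes that were called and separated in oocytes, the 6 largest called changes after IVM, and the closest profiles. MTHFD1, ALDH1L2 and MTFMT were named outside this rule, after their values were seen. CHDH, FOLR1 and INMT were named only to state a limit. NNMT and MTAP, listed too, were not matched on the array. Members and lists were chosen with earlier results of these data known. Same-numbered TH and GC arrays deviated together (r = 0.20, 0.32, 0.39 and 0.44 over 9531 genes), and no other pair of groups did so for all 4 numbers. Alternatives covered normalisation, background correction, the deposited table, the summary of spots, a filter on dim genes, the arrays fitted together, the replicate number or slide as a block, each slide alone, a plain analysis of variance and leaving out each array.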

Additional observations from a re-analysis of the deposited data

Results flagged for a closer look

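Groups of 4 arrays were screened for a single array far from the other 3, over 130 groups of the 9 genes and the named one-carbon genes; 11 stood apart, where chance marks about 1 group in 20. Among the 9 genes, MAT1A read -2.84 on GC replicate 4 and -1.59 to -1.42 on the other GC arrays, CBS read 0.08 on TH replicate 4 and -1.12 to -0.93 on the others, and BHMT, below background throughout the group, read -7.24 on CC_IVM replicate 3 and -6.77 to -6.68 on the others. For CBS on TH replicate 4, probe 2 stood apart (-1.98 against -4.15 to -3.81), while probe 1 read 2.07 against 1.66 to 1.94. GC replicate 4 also had the highest granulosa and cumulus marker sum of its group, 8.82 against 6.79 to 7.70.

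Among the other genes, 4 of the marked arrays were in CC_IVM: FOLR2 at -2.20 on replicate 4 (0.10 to 0.37 on the others), ALDH1L1 at -1.99 on replicate 2 (-1.07 to -1.02), TST at -2.17 on replicate 1 (-4.18 to -3.84) and SLC25A32 at -3.53 on replicate 2 (-2.86 to -2.80). On TH replicate 4, MTHFD1L read -0.33 (-1.44 to -1.37) and GADL1, near background, -7.42 (-7.39 on the others). In CC, MTHFD2 read -3.44 on replicate 2 (-3.95 to -3.88) and MTRR -2.33 on replicate 1 (-2.67 to -2.61).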

How the results depend on the processing

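The counts of the 9 genes called in the F-test, in oocyte against the somatic mean and in oocyte against CC stayed within 1.5 times the value given under every alternative run. Other counts moved. With the deposited table, 3 genes were called in TH against GC, 1 in GC against CC and 8 in CC_IVM against CC; with the array median, 1 in GC against CC. With slide 1 alone, 3, 3 and 0 were called in TH against GC, TH against CC and GC against CC, and with slide 2 alone 2, 4 and 0, with fewer arrays. Leaving out 1 array gave 9 for all 3 oocyte and F-test counts, 4 to 5 for TH against GC, 7 for TH against CC, 2 to 3 for GC against CC, 3 to 5 for CC_IVM against CC, 7 to 8 genes with oocyte arrays outside the somatic range, and 55 to 58 and 31 to 39 of the other one-carbon genes in the oocyte and IVM comparisons.

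A fit with the replicate block gave 9, 9, 9, 5, 7, 2 and 3 genes for the F-test, OO against somatic mean, OO against CC, TH against GC, TH against CC, GC against CC and CC_IVM against CC, and 56 and 31 other genes; it changed no count by over 1.5 times. For CC_IVM against CC a slide block could not be fitted, since each group has its own slides. In single genes, MTR between CC_IVM and CC turned from -0.68 to 0.03 after normexp, and GADL1 in the same comparison from 0.62 to -0.07 under quantile normalisation; the cause was not tested. The share of higher calls over all genes moved from 46.2 to 26.4% in the oocyte comparison and from 66.1 to 43.2% (quantile) or 83.3% (normexp) in the IVM comparison, while the other one-carbon genes had 25 higher and 39 lower, and 31 higher and 24 lower, after normexp. Without OO replicate 2, the oocyte array with the smallest share of probes above background and a choice made after seeing the data, 30 rose and 28 fell in oocytes. Genes near background (GNMT, BHMT, and MAT1A in OO and CC_IVM) are limited by signal over background.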
